A study of Mus musculus with 12 samples.

Results

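The regions described here are 266 of the 479 more open regions (MORs) that fibroblasts acquired without Zfp266, namely those that were at least as accessible on average after 72 h of reprogramming as they were in control fibroblasts. They were chosen by measured values: the mean normalised read count in Zfp266 KO fibroblasts (K) had to exceed that in control fibroblasts (C), and the mean over the 6 reprogramming libraries (R) had to reach C. The other 213 MORs had R below C, and the 479 MORs made up 0.175% of the 273256 intervals into which the 4 peak lists merge. Neither the rise from C to K nor the height of R over C is therefore a finding, and both are given below without a test.

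Omni-ATAC-seq, in which the transposase Tn5 cuts and tags accessible DNA, was run on 50000 sorted cells per library. The cells were fibroblasts (MEFs) from E12.5 embryos, labelled as strain 129. By the study's methods they came from chimeric embryos made by aggregating morulae with embryonic stem cells that carried Cas9, a Nanog-GFP reporter and a doxycycline-inducible cassette of the 4 factors MYC, KLF4, OCT4 and SOX2 marked by mOrange. They received either a non-targeting sgRNA (control) or an sgRNA against Zfp266 (Zfp266 KO, an edited pool and not a clone) and were collected 96 h after transduction. MEF samples stayed in fibroblast medium. Reprogramming samples spent the last 72 h in medium with doxycycline (300 ng/ml) plus vitamin C (10 µg/ml) and were sorted for mOrange. By the study's methods that medium also held LIF and lacked the FGF2 and heparin of fibroblast medium. The methods have the reprogramming cultures seeded with a large excess of wild-type fibroblasts of strain 129, which lack the cassette, and chimeric embryos also hold host cells without these transgenes. Each genotype was sequenced as 3 libraries in each context, MEF or reprogramming. The labels give replicate numbers but not separate cultures, so p-values rest on the spread between these libraries, which may be technical. That spread was pooled over intervals and is not a single region's own.

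ZFP266 belongs to the KRAB zinc finger proteins, DNA-binding repressors that recruit heterochromatin factors and often recognise transposable elements. B1 elements are short interspersed repeats of the mouse genome that descend from the 7SL RNA gene. AP-1, a dimer of FOS and JUN family proteins, keeps many fibroblast enhancers accessible, whereas OCT4, SOX2 and KLF4 open enhancers of other cell types when they are forced into fibroblasts.

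Sequences are shown first because B1 copies and AP-1 strings recur in these regions. The B1 consensus below was built from copies in the reference genome. The copies under it lie in regions described later, 3 named for the smallest p in reprogramming (Kitl, Vps37b, 1700061G19Rik) and the last pair for the ratio of K to C, are written in B1 orientation and are given with their GRCm38 position and strand. Capitals mark an AP-1 string (TGACTCA, or TGAGTCA on the other strand) or a KLF string (GGGTGTGG, GGGCGTGG, GGGTGGGG or GGGCGGGG on either strand).
B1 consensus, 133 bases: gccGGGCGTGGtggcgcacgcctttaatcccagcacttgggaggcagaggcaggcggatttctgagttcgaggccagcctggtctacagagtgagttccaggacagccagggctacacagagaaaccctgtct
Kitl region, chr10:100191234-100191366, minus strand, 93.2% identical: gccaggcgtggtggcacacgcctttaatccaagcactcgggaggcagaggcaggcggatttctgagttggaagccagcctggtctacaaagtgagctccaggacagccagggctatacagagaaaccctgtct
Vps37b region, chr5:124052669-124052801, minus strand, 92.5% identical: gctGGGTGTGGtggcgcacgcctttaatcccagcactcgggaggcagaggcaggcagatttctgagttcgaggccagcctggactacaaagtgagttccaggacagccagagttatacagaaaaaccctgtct
1700061G19Rik region, chr17:56885619-56885747, minus strand, 93.8% identical: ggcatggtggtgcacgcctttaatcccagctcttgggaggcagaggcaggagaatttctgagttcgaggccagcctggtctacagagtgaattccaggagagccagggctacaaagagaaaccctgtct
Rab30 region, chr7:92785248-92785332, minus strand, 83.5% identical: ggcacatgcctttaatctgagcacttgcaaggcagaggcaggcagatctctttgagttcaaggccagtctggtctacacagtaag
Chd7 region, chr4:8917498-8917581, plus strand, 73.9% identical: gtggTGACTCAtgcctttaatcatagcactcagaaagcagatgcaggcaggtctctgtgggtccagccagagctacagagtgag
The copies near Kitl, Vps37b and 1700061G19Rik are close to the consensus. That near Chd7 is diverged and carries an AP-1 string where the consensus head reads tggcgca (positions 12 to 18, counted from 1 at the 5′ end of the consensus). The substitutions G14A and G16T turn that stretch into the AP-1 string.

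AP-1 strings also lay outside B1 copies. They are shown with 25 bases on either side, on the plus strand, because the last pair carries a duplication that bears on a result below.
Kitl region, chr10:100191066-100191122: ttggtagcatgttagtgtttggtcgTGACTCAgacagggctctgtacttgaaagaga
Vps37b region, chr5:124052367-124052423: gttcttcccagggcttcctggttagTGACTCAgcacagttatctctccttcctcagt
Gon4l region 1, chr3:88823560-88823616: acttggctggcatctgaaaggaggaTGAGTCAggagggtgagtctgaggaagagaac
Gon4l region 2, chr3:88898123-88898179: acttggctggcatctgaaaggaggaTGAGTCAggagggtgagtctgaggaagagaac
The windows of both Gon4l regions are the same sequence.

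Across the 266 regions C ranged from 1.49 to 383.5 normalised reads. The median over regions was 32.9 ± 0.951 normalised reads in control fibroblasts and 79.0 ± 2.39 in KO fibroblasts (mean of the library medians ± SD, n = 3 each). The median R was 105.9, with a range of 4.04 to 1083. R comes from the 12-library mean of the deposited table and has no SD of its own for a region that the reprogramming table does not list. The median ratio of K to C was 2.19, from 1.29 to 30.3, and the median ratio of R to C was 2.46, reaching 44.7. In the 213 MORs with R below C, the median C was 63.6 and the median R 21.8, a difference that the rule itself favours. In all 266 the 3 KO fibroblast libraries lay above the 3 controls, as in all 213 others, which the selection of the list largely fixes.

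The regions fell into 2 classes of nearly equal size. In 134 of them R exceeded K (median C 34.4, K 74.0, R 178.9). In 132, R lay from C to K (median C 27.3, K 88.7, R 49.2). R averages control and KO reprogramming libraries, so R above K need not hold in control reprogramming cells. Of the 134, 41 were also more open in KO than in control reprogramming cells. Over all 60 regions of that kind, the reprogramming control mean exceeded K in 26. R was at least 2 times C in 158 regions, at least 5 times C in 50 and at least 10 times C in 21. At the other end, 24 regions had an R within 1 SD of the control fibroblast libraries above C. R lay above every control fibroblast library in 244 of 266.

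**Figure D1:**
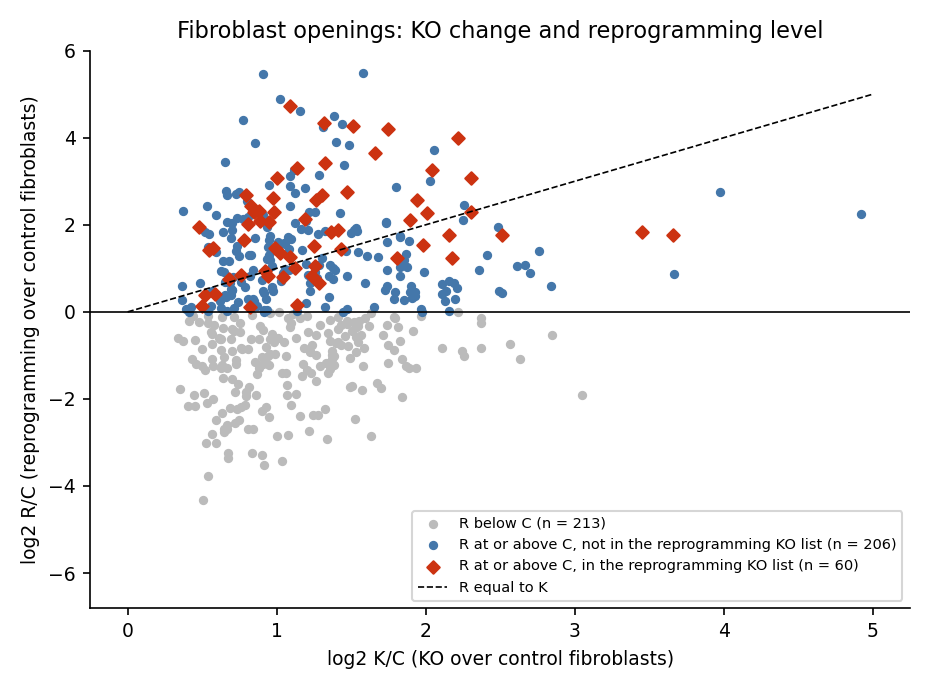
Each point is 1 of 479 fibroblast MORs. The x axis gives log2 of K over C, the y axis log2 of R over C, and the dashed line marks R equal to K. Points on or above the horizontal line at 0 are the 266 regions described here, and diamonds are the 60 of them that are also in the reprogramming KO list. The 213 grey points lie below the line by the rule.

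The threshold itself separates near neighbours. The 3 regions just inside lay in introns of Inpp4a (C 12.2, R 12.2) and Sap130 (C 8.32, R 8.33) and in an exon of Acad10 (C 35.1, R 35.2). The 3 just outside lay in introns of Pigu (C 62.8, R 62.7), Uqcc1 (C 10.2, R 10.1) and Fastkd5 (C 23.7, R 23.1). In all 6 the gap between R and C was smaller than the SD among control libraries, which ran from 1.70 to 7.74.

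The peak lists come from the same libraries as C, K and R and so serve as a description only. They showed that accessibility in reprogramming was not uniform among these regions. A peak was called in both reprogramming lists at 186 of 266 regions (69.9%), compared with 49 of 213 (23.0%) of the MORs with R below C and 53.9% of all intervals. A further 26 regions had a reprogramming peak in Zfp266 KO cells alone and 2 had one in control cells alone (9.77% and 0.752%, compared with 17 and 2 of the 213 MORs with R below C and 4.96% and 7.27% of all intervals). The remaining 52 regions (19.5%) had no reprogramming peak, as did 68.1% of MORs with R below C and 33.8% of all intervals, and there R at or above C did not amount to a called open site in reprogramming. Of these, 48 had a peak in KO fibroblasts and in no other list, with a median of 9.42 reads in C, 37.5 in K and 17.1 in R. Control fibroblasts had a peak at 123 regions (46.2%), compared with 74.6% of MORs with R below C and 59.7% of all intervals, and 18 regions had peaks in both reprogramming lists but in neither fibroblast list. Each list was called on merged replicates, so a peak carries no replicate error.

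The next question was whether the loss of Zfp266 also changed these regions in reprogramming cells, a contrast that the rule touched only through R, which averages KO and control libraries. Of the 266 regions, 60 (22.6%) were among the 1522 intervals more open in Zfp266 KO reprogramming cells, and they made up 3.94% of those 1522. Across all intervals 0.557% were more open, and 10 of the 213 MORs with R below C were (4.69%). All 60 rose in KO by edgeR's quasi-likelihood test (two-sided, Benjamini-Hochberg adjusted over 273256 intervals, highest adjusted p = 0.000499), and in all 60 the 3 KO libraries lay above the 3 controls. The median log2 difference was 0.95, from 0.35 to 2.75, compared with 1.03 over all 1522. Their median over regions was 80.5 ± 2.09 in control and 174.4 ± 2.99 in KO reprogramming cells (SD, n = 3 libraries), compared with 33.8 ± 1.78 and 83.1 ± 0.688 in fibroblasts. The deposited table holds only intervals that passed the authors' threshold on these very libraries, so the retest adds no independent evidence. The test also pooled the spread between libraries over this selected list, so its p-values may be too small. With TMM factors computed over the list, which re-centre a list whose intervals nearly all rise, 6 regions were called more open and 8 more closed.

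These 60 regions differed in what control cells did on entering reprogramming. In 26 the reprogramming control mean already exceeded K, and in 4 it was below C, so that those 4 reached the threshold on R only through their KO libraries. Listing also moved with the level: 7 of 73 regions with R under 50 were listed, 29 of 100 with R from 50 to 150, and 24 of 93 above that. In MORs with R below C, 1 of 158, 6 of 48 and 3 of 7 were listed in the same ranges. How far the level accounts for the listing was not tested.

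The smallest p-value belonged to Interval_31274 (chr10:100190825-100191691), in intergenic sequence 103202 bp downstream of a start site of Kitl, which encodes the ligand of the receptor KIT. It gave 17.97, 9.16 and 15.3 normalised reads in control fibroblasts and 66.4, 72.7 and 70.7 in KO fibroblasts. In reprogramming it gave 34.6, 27.2 and 31.3 in control and 197.6, 196.8 and 233.4 in KO cells. The 4 groups did not overlap, and no control library reached the level of KO fibroblasts. The reprogramming difference was 2.75 ± 0.156 on the log2 scale (SE, adjusted p = 1.75e-45, edgeR), and a peak was called in both KO lists but in neither control list. Nearest genes are given here only as positions. Bulk counts cannot tell a site open in more cells from a site more open in each cell.

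In a second pattern, reprogramming control cells stayed near the level of control fibroblasts. Interval_68259 (chr13:46559622-46560599), in an intron of Cap2, an actin-binding protein gene, gave 26.6, 32.1 and 25.8 in control fibroblasts and 50.8, 53.5 and 63.6 in KO fibroblasts. Its reprogramming values were 31.3, 23.6 and 23.5 in control and 138.1, 131.6 and 119.1 in KO cells (log2 difference 2.32 ± 0.178, adjusted p = 1.92e-28, edgeR). Control cells of both contexts overlapped, and KO reprogramming cells stood highest. This region is one of the 4 that reached the threshold on R only through their KO libraries, so its place among the 266 rests on that KO level. Interval_21565 (chr10:17579088-17580065), 143642 bp upstream of Cited2, a transcriptional coregulator gene, also had overlapping control libraries in both contexts, with 15.96 ± 1.85 in control fibroblasts, 71.1 ± 6.62 in KO fibroblasts, 16.8 ± 4.84 in reprogramming control and 92.7 ± 17.9 in reprogramming KO cells (SD, n = 3 each). Its fibroblast and reprogramming KO libraries overlapped, since the lowest reprogramming KO library had 72.3 and the highest fibroblast KO library 78.7. It carried 3 B1 copies, the Kitl region 2 and the Cap2 region none, although the last had 3 KLF strings in its central 500 bp.

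Elsewhere reprogramming opened the site in control cells as well and KO added to it. The Gse1 intron region (Interval_249130, chr8:120287352-120288896) gave 101.4, 110.9 and 114.7 in control fibroblasts and 145.1, 172.8 and 160.5 in KO fibroblasts. It reached 203.4, 201.4 and 181.4 in reprogramming control and 411.7, 393.7 and 366.7 in reprogramming KO cells (log2 difference 1.003 ± 0.0874, adjusted p = 1.09e-22, edgeR). All 4 groups were apart, and reprogramming control cells exceeded KO fibroblasts. The region in 1700061G19Rik (Interval_116798, chr17:56883376-56886825) ran in the same order, with means of 155.8, 231.4, 261.1 and 598.5.

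The last of these regions lay between these patterns. Interval_113732 (chr17:29478006-29478860), 12320 bp upstream of Pim1, a serine/threonine kinase gene, had means of 17.7 ± 2.88, 71.2 ± 10.1, 33.0 ± 4.08 and 137.4 ± 12.2 in MEF control, MEF KO, reprogramming control and reprogramming KO. Interval_203921 (chr5:124051827-124053033), 20160 bp upstream of Vps37b, which encodes an ESCRT-I subunit, had means of 32.7 ± 3.41, 63.2 ± 10.0, 61.7 ± 5.91 and 211.1 ± 7.80 (SD, n = 3 each). There the KO fibroblast and reprogramming control libraries overlapped, whereas reprogramming KO cells stood apart at 204.2 to 219.6.

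**Figure D2:**
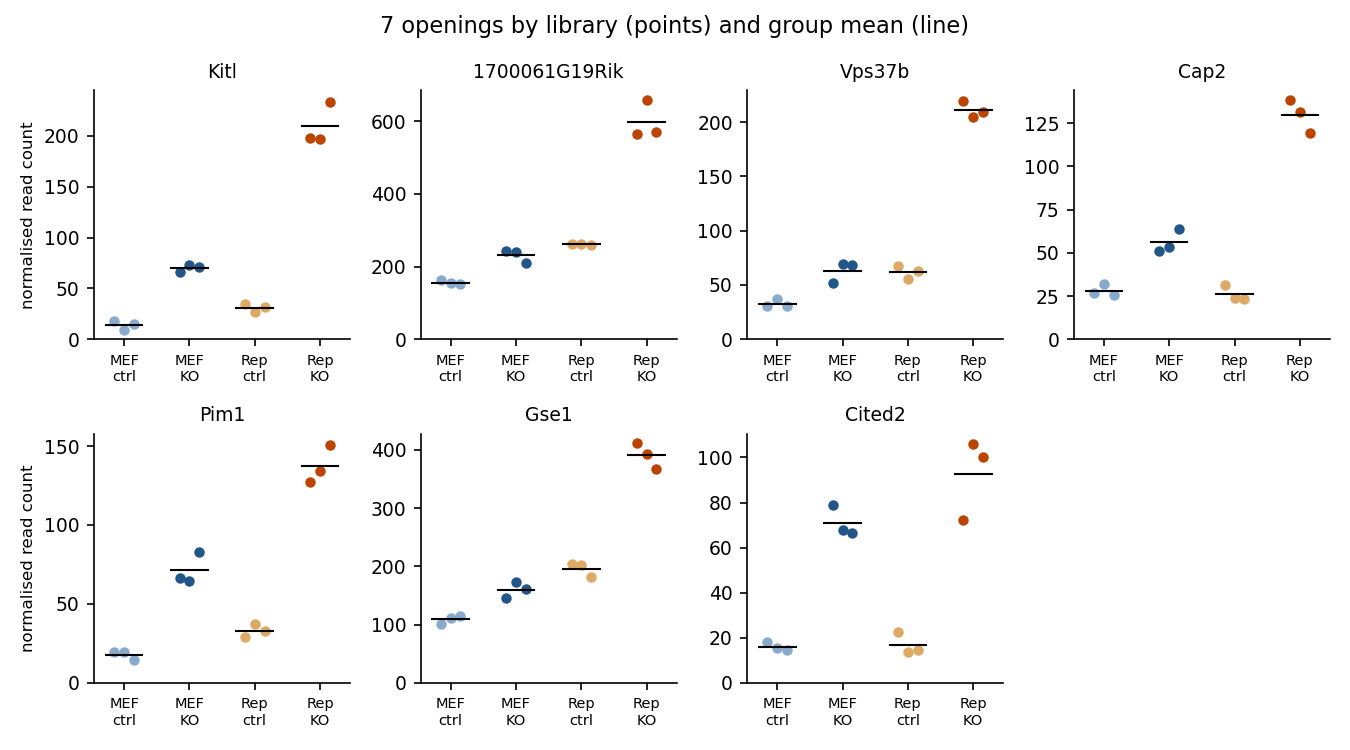
The normalised read count (y axis, starting at 0) is plotted for each library (points) and as the group mean (line) in 7 of the 8 regions with the smallest p in reprogramming, each titled by its nearest coding gene. MEF ctrl and MEF KO are fibroblasts, Rep ctrl and Rep KO reprogramming cells. The KO points lie above the control points in both contexts in every panel. The reprogramming control points overlap the fibroblast control points in the Cap2 and Cited2 panels and lie above them in the others.

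For regions outside the reprogramming table, the peak lists gave the only separate values for the 2 genotypes in reprogramming. Over the 186 regions with a peak in both lists, the median log2 ratio of fold enrichment, KO over control, was 0.049, and 118 were higher in KO (63.4%). It was 0.26 for the 47 listed regions with both peaks and 0.024 for the 139 unlisted regions, of which 78 were higher in KO (56.1%). Over all 147414 intervals with both peaks the median was -0.02 and 44.2% were higher in KO. These ratios have no replicate error, and the MORs with R below C had a median of 0.098 over 49 regions.

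None of the 6 regions with the largest ratio of R to C had a peak in control fibroblasts, and 3 had one in KO fibroblasts (those of Spink6, Fbxw7 and the Gon4l intron). Ranking by R over C itself favours a low C. Interval_30111 (chr10:92296090-92297460), far from any coding start site and nearest to Nedd1, a centrosomal protein gene, gave 15.8, 19.2 and 20.1 in control fibroblasts, 30.3, 33.6 and 39.4 in KO fibroblasts and 809.5 for R. Interval_159369 (chr3:18453546-18455333), nearest to Cyp7b1, the oxysterol 7-alpha-hydroxylase gene, gave 12.9, 22.9 and 15.3, then 34.4, 36.3 and 33.3, with an R of 509.4. Neither had a fibroblast peak, and their reprogramming peaks had nearly equal fold enrichment in control and KO cells (5.85 and 5.76 near Nedd1, 4.73 and 4.71 near Cyp7b1). Neither held a B1 copy, nor an AP-1 or KLF string in the central 500 bp. A region in an intron of Spink6, a protease inhibitor gene, rose from 20.2 ± 5.58 in C and 43.0 ± 9.12 in K to 458.6 ± 22.6 in reprogramming control and 610.7 ± 26.6 in KO cells (log2 difference 0.42 ± 0.0687, adjusted p = 1.15e-06, edgeR). Interval_165499 (chr3:84771776-84772403), 43179 bp upstream of Fbxw7, a ubiquitin ligase subunit gene, had an R of 210.3 and individual values of 4.31 to 11.9 in control and 20.2 to 31.5 in KO fibroblasts.

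The remaining pair of the 6 largest rises lay at Gon4l and cannot be counted as separate regions with certainty. Interval_166125 (chr3:88822939-88823992), in an exon of a non-coding gene upstream of Gon4l, had 7.78 ± 1.85 in C, 23.3 ± 0.849 in K and an R of 347.9, the highest ratio of R to C of all. Interval_166137 (chr3:88897269-88898580), in a Gon4l intron, had 18.2 ± 4.34, 40.8 ± 5.89 and 449.0. A stretch of 791 bases of the first, 75% of its length, was 98.6% identical to the second, so reads could be assigned to either copy. Interval_166126, between them, shared 236 bases with a site beside the second at 97.5% identity. A further copy pair was that near Prss54 (Interval_246361, chr8:95579557-95580419), whose whole length had a copy on chromosome X at 95.9% identity. Altogether 5 of the 266 regions had a copy of at least 200 bases at 95% identity or more elsewhere in the reference.

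In the 6 regions with the largest ratio of K to C, K was above R, which ranking by K over C itself favours. Interval_230434 (chr7:92784621-92785525), in an intron of Rab30, a Golgi GTPase gene, gave 2.16, 2.75 and 5.74 in control fibroblasts and 117.2, 102.2 and 103.0 in KO fibroblasts, with an R of only 16.8. Interval_175339 (chr4:11727364-11728281), 22015 bp downstream of Gem, a small GTPase gene, gave 10.8, 8.25 and 10.5, then 112.3, 128.2 and 134.3, with an R of 18.1. Both had a peak in KO fibroblasts and in no other list. Regions in introns of H2-T24, a non-classical MHC gene (C 1.49 ± 0.667, K 23.5 ± 2.24, R 10.1), and of Hlcs, the holocarboxylase synthetase gene (C 8.68 ± 1.98, K 62.3 ± 4.46, R 13.1), also had a peak in KO fibroblasts only, the first at low counts throughout.

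A pair of this group was also in the reprogramming list. Interval_174985 (chr4:8917108-8917613), nearest to Chd7, a chromatin remodeller gene, gave 8.63, 7.33 and 14.3 in control and 138.5, 132.3 and 113.1 in KO fibroblasts. In reprogramming it gave 22.4, 21.8 and 9.14 in control and 50.3, 43.1 and 60.3 in KO cells (log2 difference 1.45 ± 0.242, adjusted p = 1.5e-06, edgeR). KO cells were above control cells in both contexts, and KO fibroblasts were above all other libraries. Interval_187172 (chr4:129266960-129267761), 5956 bp upstream of C77080, behaved likewise, with means of 9.28 ± 2.14, 101.7 ± 13.5, 19.3 ± 3.33 and 47.1 ± 4.42 in the 4 groups (reprogramming log2 difference 1.30 ± 0.242, adjusted p = 3.45e-05, edgeR).

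Of the 4 highest values of R, 3 were found in intervals that also had a peak in both fibroblast lists, and the fourth was that near Nedd1 described above, which had none. Interval_166398 (chr3:90203529-90209219), 5691 bp long and in an intron of Nup210l, had 217.5 ± 9.42 in C, 281.5 ± 4.54 in K and 1083 in R, and held 5 B1 copies. Interval_202462 (chr5:114736397-114738972), in an intron of Git2, an Arf GTPase-activating protein gene, had 122.6 ± 10.8, 206.3 ± 2.34 and 822.2. Interval_74389 (chr13:102897829-102899711), in an intron of the kinase gene Mast4, had 227.8 ± 15.4, 327.0 ± 13.6 and 816.6. Fold enrichment in the reprogramming lists was slightly lower in KO than in control cells in each of these (2.23 and 2.40, 2.47 and 2.52, 3.88 and 4.12). Counts over intervals of unequal width are not levels per base.

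Few of the regions were promoters. By midpoint, 158 (59.4%) were intronic, 76 (28.6%) intergenic, 19 (7.14%) within 1000 bp of a start site and 13 (4.89%) exonic, compared with 44.9%, 40.2%, 11.2% and 3.74% of all intervals. The promoter with the largest difference K minus C, 597 bp upstream of Lrrc71, went from 179.7 ± 19.6 in C to 291.6 ± 13.3 in K and had an R of 254.8. That of Prrc2b went from 150.3 ± 4.58 to 251.7 ± 13.8, with an R of 175.7. At the start of Afmid, which encodes a formamidase of tryptophan breakdown, the values were 109.9 ± 11.98, 174.2 ± 25.5 and 458.8, the largest R of the 12 promoters with the largest difference. Differences were smaller in reads upstream of Ndel1, a dynein regulator gene (61.3 ± 11.3, 109.8 ± 8.76), and of Ralgds, a Ral exchange factor gene (21.3 ± 2.08, 53.3 ± 12.8, R 23.1). Of these 12, the promoter of the non-coding Gm45804, nearest to the nucleoporin gene Nup93, was in the reprogramming list: 231.3, 198.7 and 240.2 in control and 333.9, 388.7 and 366.7 in KO cells (log2 difference 0.70 ± 0.0874, adjusted p = 7.61e-12, edgeR).

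The 266 regions lay in or nearest to 278 of 21924 coding genes (1.27%). Of 25 pluripotency genes, 4 (16%) had one of the regions in or nearest to them, and 1 had a MOR with R below C. These counts were not tested, and the gene lists were drawn up with earlier results of these data known. The paper names Fbxo15 and Dnmt3l, both counted here, among genes associated with MORs at 72 h of reprogramming. The share of pluripotency genes is therefore no independent finding. Of 16 TGF-beta pathway genes 1 had one of the regions, namely Smad4. None of the 11 AP-1 family genes, 15 epithelial genes, 15 mesenchymal genes or 15 named reprogramming roadblock genes had one. The roadblock list holds only part of the genes that the paper's screen reported. The region in an intron of Fbxo15, an early marker of reprogramming, gave 2.16, 7.33 and 1.91 in control and 12.3, 18.5 and 16.1 in KO fibroblasts. It then gave 14.5, 10.9 and 14.4 in reprogramming control and 45.7, 70.1 and 61.9 in KO cells, and was in the reprogramming list (log2 difference 2.14 ± 0.253, adjusted p = 6.36e-13, edgeR). KO fibroblasts and reprogramming control cells overlapped there, and reprogramming KO cells stood apart.

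The other regions of these lists were not in the reprogramming table. The intron region of Dnmt3l, a DNA methyltransferase cofactor gene, had 15.1 ± 1.97 in C, 67.5 ± 4.61 in K and an R of 15.4, at the edge of the rule. That nearest to Klf5, 34570 bp downstream, had 15.2 ± 4.29, 48.0 ± 3.95 and 16.5, and both had a peak in KO fibroblasts only. The intron region of Esrrb, an orphan nuclear receptor gene, had 79.1 ± 5.43, 123.8 ± 7.45 and 149.0, with peaks in all 4 lists. Upstream of Smad4, the shared mediator of TGF-beta and BMP signals, the values were 19.9 ± 6.77, 72.7 ± 14.1 and 49.9.

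B1 elements, a sequence feature that the rule did not use, were frequent in these regions. At least 1 copy was found in 145 of the 266 regions (54.5%, 95% Wilson interval 48.5% to 60.4%, counting error only), in 106 of 213 MORs with R below C (49.8%) and in 7.33% of all intervals. The regions were longer (median 1034 bp) than intervals overall (732 bp), but within the central 500 bp the shares were still 33.5%, 30.0% and 3.31%. A copy was present in 44 of the 60 regions in the reprogramming list (73.3%) and in 101 of the 206 others (49.0%). These shares were not tested, since the regions were chosen by measured values. More than 1 copy was present in 39 regions (14.7%), in 15 MORs with R below C (7.04%) and in 1.07% of all intervals, counted over whole intervals of unequal length (median 1034, 854 and 732 bp).

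The copies were also described by strand, identity and place. Of 197 copies in the 266 regions, 124 (62.9%) pointed their 5′ head towards the midpoint of the interval, compared with 56.4% of 133 copies in MORs with R below C and 52.0% of 23685 copies in all intervals. Their median identity to the consensus was 83.8%, compared with 83.0% and 85.7%. The centre of a copy lay a median of 252.5 bp from the midpoint, compared with 247.5 and 320.5 bp.

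AP-1 and KLF strings were searched in the same windows. An AP-1 string lay in the central 500 bp of 93 regions (35.0%, 95% Wilson interval 29.5% to 40.9%), of 97 MORs with R below C (45.5%) and of 20.8% of all intervals. A KLF string lay in that of 70 regions (26.3%, 21.4% to 31.9%), of 35 MORs with R below C (16.4%) and of 19.5% of all intervals. KLF strings were found in 42 of 134 regions with R above K (31.3%) and 28 of 132 with R from C to K (21.2%), and in 22 of the 60 in the reprogramming list (36.7%). B1 copies lay in the central 500 bp of 35 (26.1%) and 54 (40.9%) of those classes, but in the whole interval of 73 (54.5%) and 72 (54.5%). AP-1 strings lay in the central 500 bp of 32.8% and 37.1% of those classes and of 41.7% of the 60 listed regions. With B1 bases masked, KLF shares were 21.8% and 12.2% in regions with R at or above and below C and 19.1% in all intervals, and AP-1 shares 32.7%, 44.1% and 20.8%. Masked KLF shares were 26.1% with R above K, 17.4% with R from C to K and 25% in the 60 listed regions.

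Strings of other factors were rarer. A SOX string (CCATTGTT, CCTTTGTT, CCATTGTC or CCTTTGTC) lay in 11.7% of the central windows, in 6.57% of those with R below C and in 11.2% of all. For the RUNX string AACCACA the shares were 15.4%, 16.9% and 14.2%, for the TEAD string GGAATGT 6.39%, 10.3% and 9.31%, and for the OCT string ATTTGCAT 1.504%, 2.35% and 3.27%. No B1 copy in the whole interval and no AP-1 or KLF string in the central 500 bp was found in 58 regions (21.8%), 4 of the 60 listed ones (6.67%), 42 MORs with R below C (19.7%) and 58.1% of all intervals, which are shorter. All strings were searched on both strands, and a match is not a bound site. GC content was close, at a median of 46.4%, 45.4% and 45.0% of the central 500 bp.

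**Figure D3:**
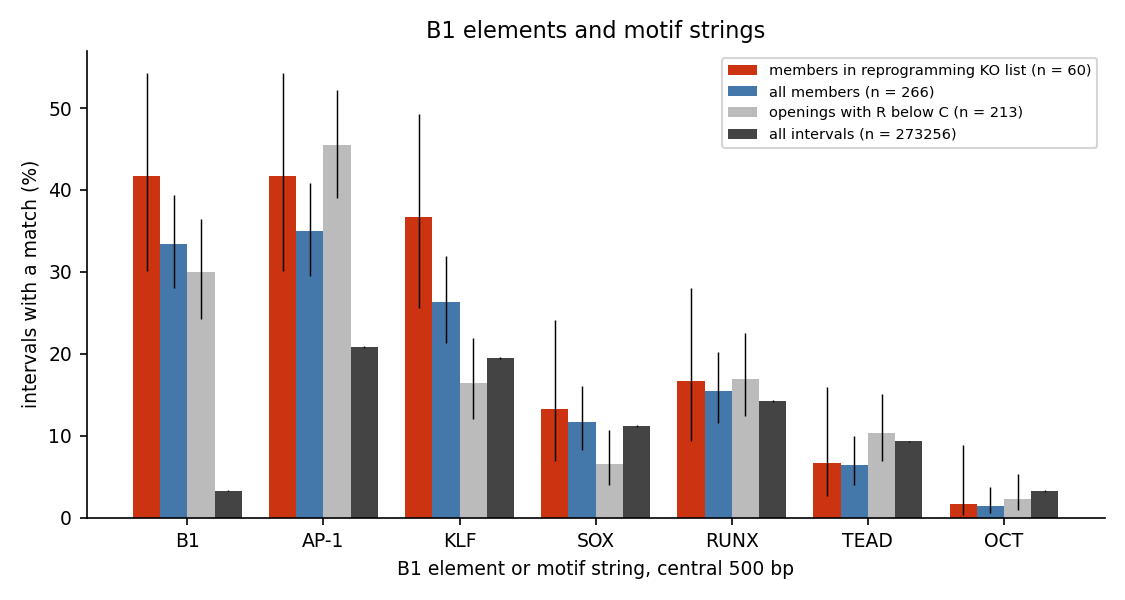
Bars give the percentage of intervals (y axis) with a B1 copy or a motif string (x axis) in the central 500 bp, for the 60 regions in the reprogramming KO list, all 266 regions (members), the 213 MORs with R below C and all 273256 intervals. Error bars are 95% Wilson intervals and cover counting error only. B1 stands at 33.5% and 30.0% in both sets of MORs and at 3.31% in all intervals, while KLF is at 26.3% and AP-1 at 35.0% in the 266 regions.

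Some of the AP-1 strings were part of B1 itself. Among the 197 copies in the 266 regions, 13 (6.6%) contained the AP-1 string, compared with 7 of 133 (5.26%) in MORs with R below C and 207 of 23685 (0.874%) in all intervals. In 11 of the 13 the string stood at or within 3 bases of consensus positions 12 to 18, the stretch seen above in the Chd7 copy, compared with 3 of the 7 in MORs with R below C and 97 of the 207 in all intervals. As shares of all copies these were 5.58%, 2.26% and 0.41%. The C77080 region also belonged to the 11. KLF strings were present in 24 of 197 (12.2%), 22 of 133 (16.5%) and 3266 of 23685 (13.8%) copies of the same sets, and in 13 of the 58 copies (22.4%) of the regions in the reprogramming list. The consensus itself has a KLF string in its head, as printed above, of which the Vps37b copy has another form and the Kitl copy none.

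**Figure D4:**
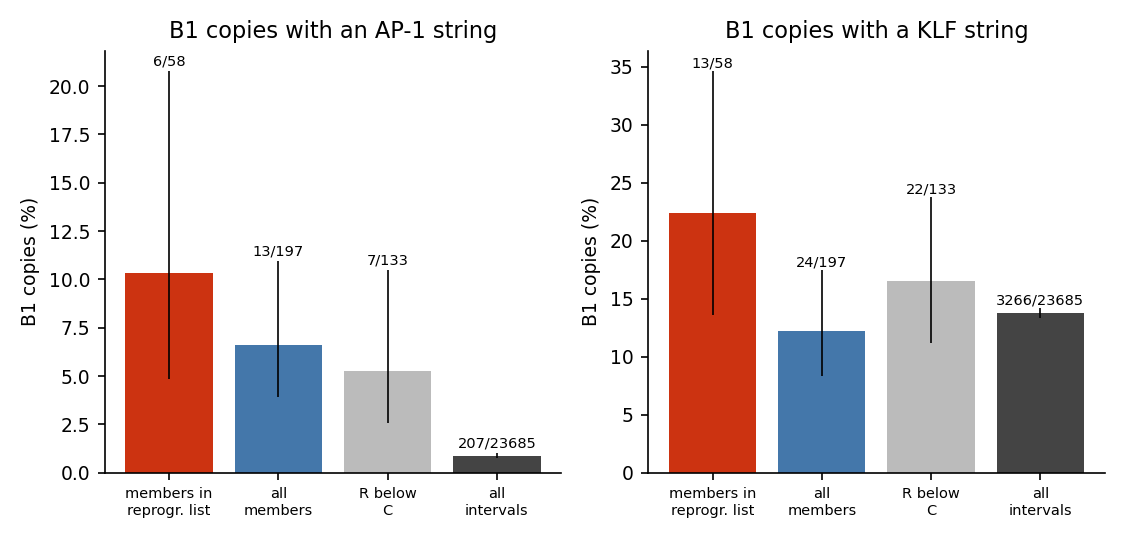
The y axes give the percentage of B1 copies that contain an AP-1 string (left) or a KLF string (right), for copies in the 60 regions in the reprogramming KO list, all 266 regions, the 213 MORs with R below C and all intervals. Numbers above the bars are copies with the string over all copies, and error bars are 95% Wilson intervals for counting error only. On the left, 13 of 197 copies stand against 207 of 23685, and on the right 24 of 197 against 3266 of 23685.

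The regions were spread over the genome, with 14 neighbouring pairs at most 100 kb apart. Their median distance to the nearest coding start site was 10007 bp.

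The libraries held 33936 to 86490 reads within the fibroblast list and 141616 to 324141 within the reprogramming list, totals that are not the sequencing depth, and size factors ran from 0.630 to 1.46. Peaks lay over the gene starts of the fibroblast markers Col1a1, Col1a2, Prrx1, Twist1, Thy1 and Pdgfrb in both fibroblast lists, and over the last 4 of these in both reprogramming lists. Epcam and Cdh1 had peaks in all 4 lists and Krt8 in the reprogramming lists, whereas the starts of Ptprc, Pecam1, Cdh5, Pou5f1 and Nanog had none. The Zfp266 promoter had a peak in all 4 lists, with fold enrichment of 5.46, 5.08, 5.03 and 4.52 in MEF control, MEF KO, reprogramming control and reprogramming KO, which does not check the edit in its coding sequence.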

How the data were processed

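Omni-ATAC-seq of 12 libraries (4 groups of 3) was analysed from the deposited tables. The authors trimmed reads, mapped them with BWA (GRCm38), filtered out duplicates, improper pairs and reads on blacklisted or mitochondrial sequence, called broad peaks with MACS2 and compared groups with DESeq2. How reads that map to several sites were treated is not given in the sources used here. The deposited tables list only intervals under an adjusted p-value of 0.05, with raw read counts per library. They also hold the same counts divided by a size factor, a normalised signal deposited by the authors. Peak lists deposited by the authors hold, for merged replicates, a ratio (fold enrichment) and a −log10 q-value per peak. The authors' own log2 fold changes, their errors and p-values were not used.

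The 6 normalised values of each fibroblast interval were subtracted from 12 times the deposited mean, and the remainder over 6 gave R. Counts in reprogramming were tested with edgeR 4.0.16 (quasi-likelihood, recovered size factors, R 4.3.3) over the 1608 listed intervals. Adjustment was over 273256 intervals, with unlisted intervals taken as not significant. A run on simulated counts changed a minority of intervals, equally up and down, and adjusted over listed intervals only. It therefore does not show how the test performs on the real list. log2 differences in the text come from the fit to the real counts. B1 copies were matched with blastn 2.17.0 (E-value under 1e-05, at least 60 aligned bases) to a consensus of 300 reference elements. Genes came from GENCODE M21, and start coordinates were moved by 1 to count from 1. Named regions were the 8 with the smallest p in reprogramming, the 6 with the largest R over C, the 6 with the largest log2 K over C (pseudocount 1), the 4 with the largest R, 3 on either side of the threshold, 12 promoters with the largest difference K minus C, and those in or nearest to the listed genes. A region that the rule names is not reported here. The members and lists were chosen with earlier results of these data known. Alternatives covered left-out libraries, the threshold on R, scaling, filtering, a replicate block, peak strictness and motif windows.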

Additional observations from a re-analysis of the deposited data

How the results depend on the processing

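The number of regions ran from 259 to 269 when any 1 fibroblast library was left out, and at least 259 of the 266 were kept each time. A threshold of 1.2 times C left 236 regions and 0.8 times C gave 301. Regions with R above K numbered 134 to 136 without any 1 fibroblast library. Leaving a reprogramming library out of R was not possible for regions outside the reprogramming table. The 60 calls in reprogramming became 59 with DESeq2, 59 to 60 without any 1 reprogramming library, and 6 more open with 8 more closed with TMM factors over the list, a scaling that centres the list by construction. Same-numbered reprogramming libraries deviated together only weakly (correlations of 0.0368, 0.101 and 0.0812), so the numbers were not taken as pairs, and the replicate block left 60 calls. No call was lost with filterByExpr or at an adjusted p under 0.01. The median log2 ratio of reprogramming peak fold was 0.0431 both with a −log10 q of at least 5 and with peaks covering at least 50% of the interval. The share with B1 was 33.5% in the central 500 bp and 44% with at least 100 aligned bases. AP-1 strings lay in 16.2% of central 200 bp windows and 58.6% of whole intervals, and KLF strings in 11.7% and 47.4%. Shares kept within their interval at 1.2 times C and, for AP-1 and KLF, with B1 masked. R has no replicate error outside the reprogramming table, so regions near the threshold cannot be placed with certainty.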
